A study of Mus musculus with 8 samples.

Results

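The 34 genes described here encode subunits of the constitutive proteasome, the standing protein-degrading machine of the cell, and 3 chaperones of its assembly. They were taken by name from the deposited expression table, as protein-coding genes called Psma, Psmb, Psmc or Psmd with a number and nothing after it. The immunoproteasome genes Psmb8, Psmb9 and Psmb10 were left out of the set and are used below only for comparison, and 1 gene with a suffix, Psmc3ip, was left out as well. The table holds 18473 genes in all.

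RNA sequencing was done on 8 mouse libraries, 4 titled EXO and 4 titled LPS. According to the series text, macrophages were sequenced after treatment with ADSC-Exos, a usual name for exosomes of adipose-derived stem cells, to find genes that change with macrophage polarization. The sample labels of all libraries name lung tissue and the epithelial line MLE-12, which was immortalized from mouse lung. LPS usually stands for lipopolysaccharide, a bacterial product that activates macrophages. Whether LPS was also given to the EXO samples is not stated, nor is a dose or a time, and untreated cells are not analysed here. The labels do not say that replicates were separate cultures, so p-values measure the spread between these libraries, which may be technical.

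The libraries carried macrophage transcripts, and the 2 lung epithelial markers that were analysed stood near 0. The other epithelial markers of the list used were not analysed here. All 12 macrophage markers of the list used averaged at least 1 FPKM (fragments per kilobase of gene, scaled to the total of the library), and their summed FPKM ranged from 5659 to 7217 in EXO and from 10320 to 21790 in LPS. Of those 12 markers, 11 were lower in EXO. Of 15 lung epithelial markers 2 were analysed, Ocln, listed at 0 in all EXO libraries, and Elf3, listed at 0 in all LPS libraries, and their summed FPKM reached at most 0.0133 in EXO and 0.0233 in LPS. The sums for 3 neutrophil markers ranged from 4.06 to 7.12 in EXO and from 5.48 to 11.6 in LPS, and those for 3 lymphoid markers from 3.18 to 6.4 in EXO and from 4.35 to 10.1 in LPS. For 4 stromal and endothelial markers, with Col1a1 at 0 in all 8 libraries, the sums ranged from 0.118 to 0.409 in EXO and from 0.257 to 0.59 in LPS. The part of these markers in the results below was not tested, and in bulk RNA fewer cells of a type cannot be told apart from less RNA per cell. Gene-assigned fragments numbered 37067082 to 39191709 per EXO library and 38764265 to 40644450 per LPS library.

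The proteasome is a barrel, the core particle, capped by regulatory particles. The core has outer rings of alpha subunits (Psma genes), which form the gate, and inner rings of beta subunits (Psmb genes), of which Psmb5, Psmb6 and Psmb7 carry the proteolytic sites. The regulatory particle has a base, with a ring of ATPases (Psmc genes) that unfold substrates, and a lid (most Psmd genes) that removes ubiquitin. In immune cells exposed to interferon, the catalytic subunits can be replaced by those of the immunoproteasome, which favours peptides for MHC class I.

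Constitutive proteasome genes that changed were, with 1 exception, higher in EXO than in LPS, by modest amounts. The exception was Psmd10, an assembly chaperone gene. The change was uneven among subunits of the same complex. Of the 34 genes, all of which passed the filter on low values, 19 were higher (55.9%), 1 was lower (2.94%) and 14 were not called, at a limma adjusted p under 0.05 over 9812 genes tested. Over all tested genes, 33.7% were higher and 24.7% were lower, or 58.4% called in either direction. The number of the 34 genes called higher was 16 after rescaling of the libraries by median of ratios or with no filter, and 14 to 21 when 1 library was left out. Of all tested genes, 30.6% were higher after rescaling, 18.9% with no filter and 29.7% to 37.9% when 1 library was left out. The median log2 fold change, taken as EXO minus LPS after a log2(FPKM + 1) transform, was 0.35 for the 34 genes and 0.09 for all tested genes. Every EXO library lay above every LPS library in 16 of the 34 genes (47.1%), against 29.1% of all tested genes, and every EXO library lay below every LPS library in 1 gene, against 22.1% of all tested genes. The 34 genes together held 1.32%, 1.24%, 1.36% and 1.25% of all FPKM in EXO replicates 1 to 4, and 0.892%, 0.962%, 1.1% and 1.16% in LPS replicates 1 to 4, with no overlap.

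**Figure D1:**
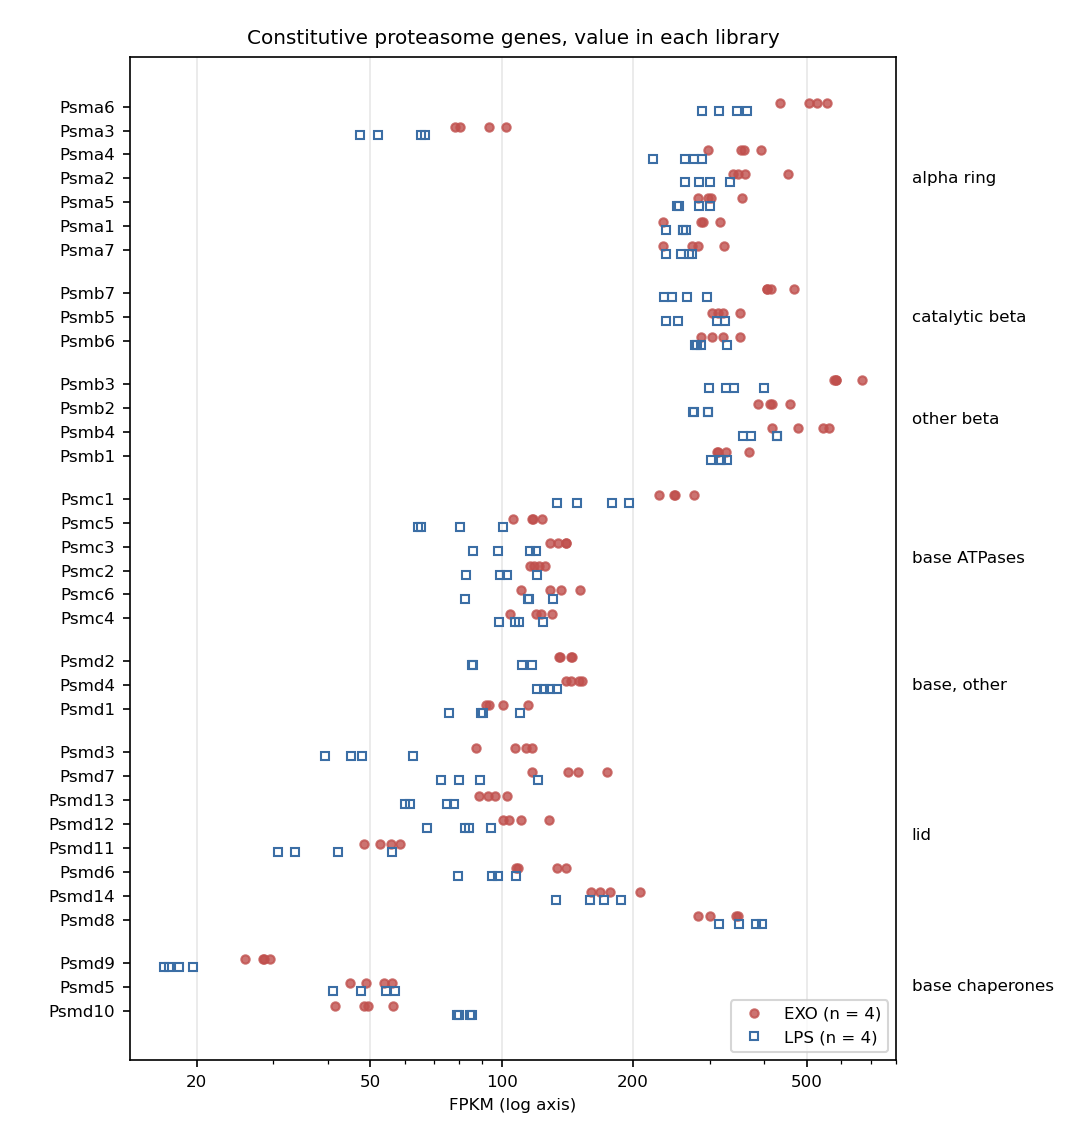
FPKM on a log axis for each of the 34 genes in each of 4 EXO libraries (filled circles) and 4 LPS libraries (open squares), grouped by role in the complex. The median core particle gene lies at 340.0 FPKM in EXO and 284 in LPS, and Psmb3, Psmd3 and Psmd9 show EXO libraries clear of LPS libraries on the high side, Psmd10 on the low side.

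The promoter windows of 4 genes are shown so that sequences before genes of opposite direction can be set side by side. Psmb3 had the highest fold change among the genes with a window, Psmd10 was the gene lower in EXO, Psmd9 is a chaperone of the same step that was higher, and Psmb5 is a catalytic subunit that was not called. RefSeq windows of build GRCm38.p6, from 250 bases before to 50 after the annotated start, were matched for 28 of the 34 genes. Capitals mark the antioxidant response element core TGACNNNGC, the letters bound by NRF1 and NRF2 partners, and the CCAAT box, bound by the NF-Y trimer, on either strand (a CCAAT box on the other strand reads ATTGG). The windows are chr11:97703184-97703483 (plus strand) for Psmb3, chr5:123227940-123228239 (plus strand) for Psmd9, chrX:140956662-140956961 (minus strand) for Psmd10 and chr14:54617946-54618245 (minus strand) for Psmb5, each written 5′ to 3′ along the gene.
Psmb3: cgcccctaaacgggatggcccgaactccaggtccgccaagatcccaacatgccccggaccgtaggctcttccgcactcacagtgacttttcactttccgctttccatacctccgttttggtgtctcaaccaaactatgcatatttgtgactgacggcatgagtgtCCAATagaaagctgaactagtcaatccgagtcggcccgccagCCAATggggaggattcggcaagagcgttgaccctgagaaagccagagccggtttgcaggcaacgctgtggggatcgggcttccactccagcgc
Psmd9: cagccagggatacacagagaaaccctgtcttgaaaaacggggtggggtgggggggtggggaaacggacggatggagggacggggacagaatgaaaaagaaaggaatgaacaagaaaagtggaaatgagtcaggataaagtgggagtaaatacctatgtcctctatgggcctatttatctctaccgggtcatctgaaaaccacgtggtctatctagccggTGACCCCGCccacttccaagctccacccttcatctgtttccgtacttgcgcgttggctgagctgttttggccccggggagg
Psmd10: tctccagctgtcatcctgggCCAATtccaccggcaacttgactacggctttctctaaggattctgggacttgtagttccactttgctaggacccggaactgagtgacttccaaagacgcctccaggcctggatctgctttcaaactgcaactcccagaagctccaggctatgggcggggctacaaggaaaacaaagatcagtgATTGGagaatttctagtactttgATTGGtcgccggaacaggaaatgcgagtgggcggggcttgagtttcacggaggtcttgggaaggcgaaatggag
Psmb5: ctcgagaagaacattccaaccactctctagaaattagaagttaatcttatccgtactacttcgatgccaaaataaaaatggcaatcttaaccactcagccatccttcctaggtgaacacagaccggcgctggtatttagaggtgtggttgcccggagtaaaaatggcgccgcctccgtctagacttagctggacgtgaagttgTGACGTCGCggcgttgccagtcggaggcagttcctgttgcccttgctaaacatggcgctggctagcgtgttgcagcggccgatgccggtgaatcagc
In Psmb3 the CCAAT boxes begin 85 and 43 bases before the start. Psmd10 holds 3, beginning 230, 47 and 24 bases before it. The antioxidant response element core begins 31 bases before the start in Psmd9 and 47 before it in Psmb5. It was found in 5 of the 28 genes (17.9%), namely Psmb5, Psmb6, Psmc6, Psmd9 and Psmd12, against 16% of the 14145 genes of the table with a window. By window, it was in 16.7% of those of the proteasome genes. That share was 13.8% for the genes of the table and 12.4% for all windows of that length in the reference. The CCAAT box was found in 11 of the 28 genes (39.3%), against 41.9% of the genes of the table. By window, it was in 36.7% for the proteasome genes, 37% for the genes of the table and 37.4% for all windows. Both shares were near those of other genes, the motifs do not overlap in their letters, and a match is a description of the sequence only.

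Within the alpha ring, Psma6, Psma3, Psma4 and Psma2 were higher in EXO, and Psma1, Psma5 and Psma7 were not called. Psma6 stood at 557, 527.5, 505 and 434 FPKM in EXO replicates 1 to 4, against 315, 287, 346 and 364 in LPS replicates 1 to 4. All EXO libraries were above all LPS libraries, with a mean ratio of 1.54 (log2 fold change 0.62, SE 0.12, limma adjusted p = 0.000456). Psma7 stood at 323, 235, 282 and 272 FPKM in EXO, against 257, 268, 272 and 238 in LPS. Its groups overlapped, with EXO replicate 2 the lowest of all 8 libraries, and the log2 fold change was 0.10 (95% confidence interval -0.15 to 0.35, limma adjusted p = 0.498).

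The other alpha subunits lay between those. Psma3 averaged 88.5 ± 11.4 FPKM in EXO and 57.9 ± 9.65 in LPS (SD, n = 4 each), and was the least abundant core gene in both groups. Psma4 averaged 350.3 ± 39.6 FPKM in EXO and 262 ± 28.5 in LPS, and Psma2 averaged 374 ± 52.4 in EXO and 295 ± 30.3 in LPS. The call of Psma2 (limma adjusted p = 0.0288) was lost without EXO replicate 1 (0.0942), LPS replicate 1 (0.0855) or LPS replicate 2 (0.0717), after rescaling (0.0964) and with no filter on low values (0.0538). Psma1 averaged 282 ± 34.3 FPKM in EXO and 256 ± 12 in LPS, and Psma5 averaged 308 ± 32.2 in EXO and 273 ± 22.9 in LPS, and both overlapped between groups. Near-identical processed pseudogenes exist for several proteasome subunits, and the handling of fragments shared with them is not stated, so single levels carry that uncertainty.

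Of the 3 catalytic subunits, Psmb7, which carries the trypsin-like activity, was higher in EXO, and Psmb5 (chymotrypsin-like) and Psmb6 (caspase-like) were not called. Psmb7 stood at 467, 413, 406 and 406 FPKM in EXO replicates 1 to 4, against 235, 246, 296 and 266 in LPS replicates 1 to 4. The groups were far apart, with a mean ratio of 1.62 (log2 fold change 0.70, SE 0.11, limma adjusted p = 0.000106). Psmb5 stood at 351, 303, 321 and 313 FPKM in EXO, against 238, 254, 312 and 325 in LPS, so that LPS replicates 3 and 4 lay within the EXO range. Its log2 fold change was 0.20 (95% confidence interval -0.06 to 0.46, limma adjusted p = 0.175), and it was called higher when EXO replicate 2 and LPS replicate 4 were both left out (0.30, adjusted p = 0.0374). Psmb6 stood at 351, 303, 286 and 321 FPKM in EXO, against 277, 286, 329 and 280 in LPS. The fold change on the log2 scale was 0.10 (95% confidence interval -0.13 to 0.34, limma adjusted p = 0.432). The ranges of Psmb6 overlapped through LPS replicate 3 alone, at 329 FPKM. The other LPS libraries lay below every EXO library, LPS replicate 2 only just.

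Among the beta subunits without a proteolytic site, Psmb3 and Psmb2 were clearly higher in EXO, Psmb4 was higher by less, and Psmb1 was not called. Psmb3 was the most abundant of the 34 genes in EXO, at 667, 576, 585 and 583 FPKM in replicates 1 to 4, against 299, 326, 399 and 340 in LPS replicates 1 to 4. Its mean ratio of 1.77 was the highest in the core particle (log2 fold change 0.82, SE 0.12, limma adjusted p = 3.81e-05), and it took 7.91% of the summed FPKM of the 34 genes in EXO and 5.68% in LPS. Psmb1 stood at 369, 311, 313 and 326 FPKM in EXO, against 316, 319, 328 and 301 in LPS. Its groups overlapped, the log2 fold change was 0.06 (95% confidence interval -0.16 to 0.28, limma adjusted p = 0.65), and it was negative (-0.02) after the median-of-ratios rescaling. Psmb2 averaged 418 ± 30.1 FPKM in EXO and 286 ± 12.5 in LPS without overlap. Psmb4 averaged 499 ± 66.5 FPKM in EXO and 396 ± 37.1 in LPS. The call of Psmb4 (limma adjusted p = 0.0338) was lost when EXO replicate 1, EXO replicate 4, LPS replicate 1 or LPS replicate 2 was left out (0.0794 to 0.105), after rescaling (0.0977) and with no filter (0.0597).

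Of the 6 ATPases of the base, Psmc1, Psmc5 and Psmc3 were higher in EXO, and Psmc2, Psmc4 and Psmc6 were not called. Psmc1 stood at 250, 229, 276 and 248 FPKM in EXO replicates 1 to 4, against 134, 149, 179 and 195 in LPS replicates 1 to 4. It was the most abundant ATPase gene in both groups, did not overlap between them, and had a mean ratio of 1.53 (log2 fold change 0.62, SE 0.13, limma adjusted p = 0.000925). Psmc4 stood at 123, 104, 130 and 120 FPKM in EXO, against 98.6, 107, 124 and 110 in LPS, and overlapped (log2 fold change 0.12, 95% confidence interval -0.13 to 0.36, limma adjusted p = 0.388). Psmc5 averaged 116 ± 7.49 FPKM in EXO and 77.6 ± 17 in LPS, and Psmc3 averaged 136 ± 5.41 in EXO and 105 ± 16 in LPS. Neither overlapped, and the call of Psmc3 (limma adjusted p = 0.014) was lost without LPS replicate 1 (0.0549).

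Psmc2 and Psmc6 were called without LPS replicate 4 and not with it. Psmc2 averaged 121 ± 4.27 FPKM in EXO and 101 ± 15.3 in LPS (limma adjusted p = 0.074), and without LPS replicate 4, which held 120 FPKM, the adjusted p was 0.0132. Psmc6 averaged 132 ± 16.9 FPKM in EXO and 111 ± 20.6 in LPS (limma adjusted p = 0.144), and without LPS replicate 4, which held 131, it was 0.0382, but with EXO replicate 2 left out as well it was 0.0716. The log2 fold change of Psmc6 was 0.26 with all libraries and 0.12 without LPS replicate 1.

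The base subunits that are no ATPases are Psmd1 and Psmd2, large scaffold proteins, and Psmd4, a ubiquitin receptor. Psmd2 stood at 136, 135, 144 and 145 FPKM in EXO replicates 1 to 4, against 85.8, 85.3, 111 and 117 in LPS replicates 1 to 4. It was higher without overlap, with a mean ratio of 1.4 (log2 fold change 0.50, SE 0.12, limma adjusted p = 0.00326). Psmd1 stood at 92, 93.4, 115 and 100 FPKM in EXO, against 75.7, 90.7, 89.5 and 110 in LPS, and overlapped (log2 fold change 0.14, 95% confidence interval -0.14 to 0.41, limma adjusted p = 0.371). Psmd4 averaged 147 ± 5.8 FPKM in EXO and 127 ± 5.65 in LPS without overlap, yet missed the threshold (limma adjusted p = 0.089), and was called when no filter was used (0.0407).

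The lid held the gene with the highest fold change of the set, Psmd3, a structural lid subunit. It stood at 107, 87.2, 117 and 113 FPKM in EXO replicates 1 to 4, against 45.3, 39.3, 47.8 and 62.7 in LPS replicates 1 to 4. The lowest EXO library was above the highest LPS library, and Psmd3 alone among the 34 genes passed a log2 fold change of 1 (mean ratio 2.18, log2 fold change 1.12, SE 0.14, limma adjusted p = 1.79e-05). Psmd14, the deubiquitinating enzyme of the lid, stood at 168, 207, 177 and 160 FPKM in EXO, against 133, 159, 188 and 172 in LPS. Its groups overlapped and it was not called (log2 fold change 0.13, 95% confidence interval -0.14 to 0.41, limma adjusted p = 0.379).

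Psmd8, another lid subunit, stood at 343, 300.2, 282 and 347 FPKM in EXO replicates 1 to 4, against 315, 383, 396 and 349 in LPS replicates 1 to 4. It was the most abundant lid gene in both groups and had a negative fold change that was not called (-0.18, 95% confidence interval -0.43 to 0.07, limma adjusted p = 0.197). Its share of the summed FPKM of the 34 genes was 4.18% in EXO and 6.03% in LPS.

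The other 5 lid genes were all higher in EXO. Psmd7, the inactive partner of Psmd14, averaged 146 ± 23.6 FPKM in EXO and 90.7 ± 21.5 in LPS, overlapping through LPS replicate 4 at 121. Psmd12 averaged 111 ± 12.5 FPKM in EXO and 82.1 ± 11.2 in LPS, and Psmd13 averaged 95.3 ± 5.96 in EXO and 68.7 ± 9.05 in LPS, both without overlap. Psmd6 averaged 123 ± 17 FPKM in EXO and 95.1 ± 11.8 in LPS, and Psmd11 averaged 53.8 ± 4.38 in EXO and 40.6 ± 11.4 in LPS, both with overlap. The calls of Psmd6 and Psmd11 (limma adjusted p of 0.0258 and 0.0334) depended on single libraries. That of Psmd6 was lost when EXO replicate 1, EXO replicate 3, LPS replicate 1 or LPS replicate 2 was left out (0.0503 to 0.0883), after rescaling (0.0586) and with no filter (0.0582). That of Psmd11 was lost when 1 of EXO replicates 2, 3 and 4 or of the first 2 LPS replicates was left out (0.0592 to 0.106) and with no filter (0.1).

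Psmd5, Psmd9 and Psmd10 encode chaperones that help assemble the base and leave before the proteasome is finished, and they did not move together. Psmd10 (gankyrin, also known as an oncoprotein in liver) stood at 49.4, 56.4, 41.5 and 48.3 FPKM in EXO replicates 1 to 4, against 79.9, 84.8, 85.3 and 79 in LPS replicates 1 to 4. It was the 1 gene of the set that was lower in EXO, without overlap (mean ratio 0.595, log2 fold change -0.75, SE 0.11, limma adjusted p = 7.3e-05). Psmd9 stood at 29.5, 25.9, 28.3 and 28.6 FPKM in EXO, against 18.2, 17.3, 19.6 and 16.9 in LPS. It was higher without overlap (mean ratio 1.56, log2 fold change 0.61, SE 0.11, limma adjusted p = 0.000195), and the 95% confidence intervals of the 2 fold changes, 0.39 to 0.84 for Psmd9 and -0.99 to -0.50 for Psmd10, lie on opposite sides of 0. Psmd5 averaged 50.9 ± 5.01 FPKM in EXO and 50.1 ± 7.13 in LPS (a log2 difference of 0.03, 95% confidence interval -0.24 to 0.30), and its sign turned under rescaling (-0.04) and without EXO replicate 2 (-0.02) or LPS replicate 1 (-0.06).

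**Figure D2:**
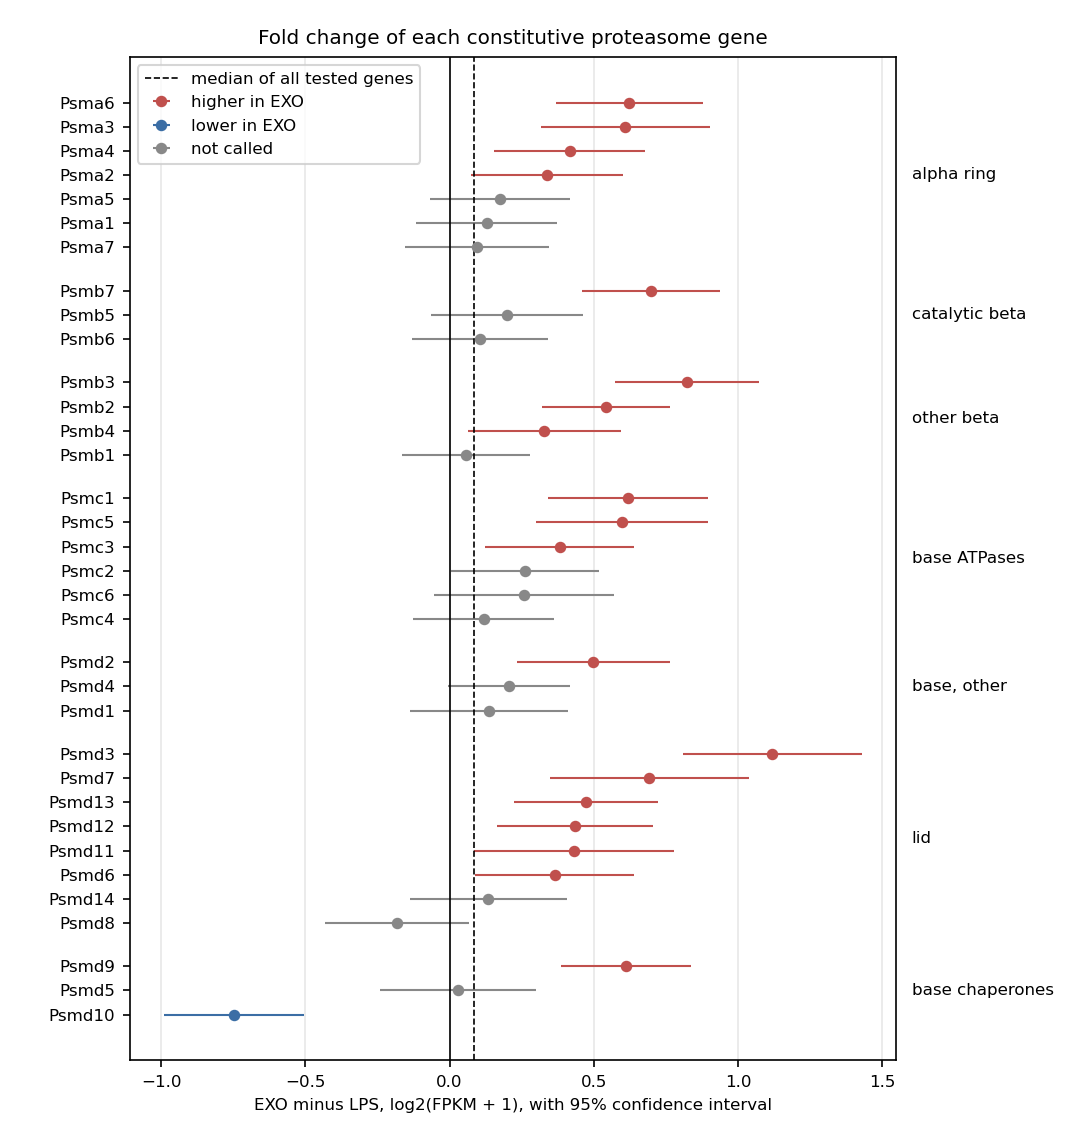
Log2 fold change (EXO minus LPS, log2(FPKM + 1) scale) with 95% confidence interval for each of the 34 genes, by role, from 4 EXO and 4 LPS libraries. Of the 34 genes, 19 are higher in EXO, Psmd10 alone is lower, and the dashed line marks the median of all tested genes at 0.09.

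Counted by role, 8 of 14 core genes and 10 of 17 regulatory particle genes were higher in EXO, and 0 of either were lower. At the same adjusted threshold, 33.7% of all tested genes were higher and 24.7% were lower. At an unadjusted limma p under 0.05, 0 of either were lower as well, and the share of all tested genes there is not given. The median log2 fold change was 0.33 for the core and 0.38 for the regulatory particle. Summed FPKM of the core genes was 5662, 4925, 4970 and 4829 in EXO replicates 1 to 4, against 3606, 3785, 4243 and 3989 in LPS replicates 1 to 4. That of the regulatory particle was 2419, 2272, 2521 and 2363 in EXO, against 1634, 1873, 2064 and 2180 in LPS. Neither sum overlapped between groups. Core over regulatory sum was 2.34, 2.17, 1.97 and 2.04 in EXO, against 2.21, 2.02, 2.06 and 1.83 in LPS, and these ratios overlapped. Per length, the median core gene stood at 340.0 FPKM in EXO and 284 in LPS, and the median regulatory particle gene at 123 in EXO and 99.9 in LPS.

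**Figure D3:**
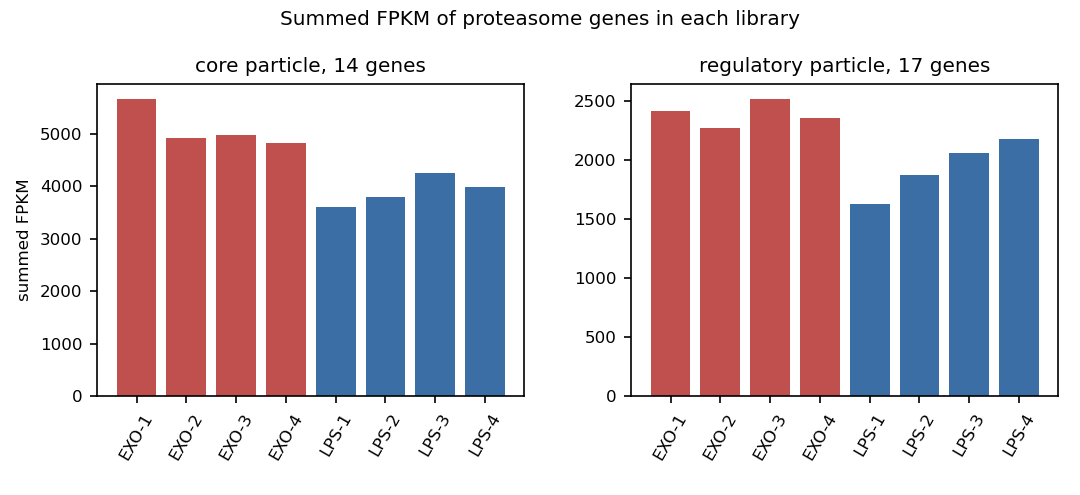
Summed FPKM of 14 core particle genes (left) and 17 regulatory particle genes (right) in each library, EXO bars left of LPS bars, axes starting at 0. The lowest EXO bar is above the highest LPS bar in both panels, and LPS-1 is the lowest bar in both.

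The LPS libraries were not alike. LPS replicate 1 was the lowest LPS library in 26 of the 34 genes, against 30.6% of all tested genes. LPS replicate 4 was the highest LPS library in 14 of 17 regulatory particle genes and in 5 of 14 core genes, against 49.8% of all tested genes, and it lay a median of 0.33 above the mean of the other LPS libraries (log2 scale) in the regulatory particle and 0.04 above it in the core. Without LPS replicate 4, 21 of the 34 genes were higher, among them the 19, against 37.9% of all tested genes. Without LPS replicate 1, 14 of the 34 were, against 31.4% of all tested genes. With all libraries that share was 33.7%. Without both EXO replicate 2 and LPS replicate 4, 21 were higher, against 38.1% of all tested genes. In every one of these fits Psmd10 was the 1 gene called lower.

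The constitutive catalytic subunits were next set against the immunoproteasome subunits that take their places. Psmb9 and Psmb10 were lower in EXO, at 14.4 ± 3.1 and 32.4 ± 4.41 FPKM in EXO against 42.6 ± 3.5 and 69.2 ± 3.63 in LPS, and Psmb8 was not called, at 116 ± 15.1 in EXO and 139 ± 12.2 in LPS (limma adjusted p = 0.0788). Psmb8 was called lower after rescaling (0.0417) and without LPS replicate 4 (0.0287).

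The ratio of constitutive to immune form was higher in EXO for 2 of the 3 sites. At the first, Psmb9 was lower (log2 fold change -1.52) and Psmb6 was not called (0.10). At the second, Psmb10 was lower (-1.08) and Psmb7 was higher (0.70). The Psmb6 over Psmb9 ratio of FPKM was 21.9, 27.1, 23.1 and 18 in EXO replicates 1 to 4, against 6.38, 6.32, 7.44 and 7.48 in LPS replicates 1 to 4. The Psmb7 over Psmb10 ratio was 13.2, 15.3, 13.2 and 11.1 in EXO, against 3.66, 3.4, 4.31 and 3.71 in LPS. Both ratios were higher in 4 of 4 EXO libraries than in any LPS library. On the log2(FPKM + 1) scale they differed by 1.63 and 1.78, each with an exact two-sided permutation p = 0.0286, the smallest that 4 against 4 libraries can give, and 0.0429 adjusted over the 3 pairs. The Psmb5 over Psmb8 ratio was 2.84, 3.14, 2.83 and 2.37 in EXO, against 1.57, 1.8, 2.22 and 2.66 in LPS. LPS replicate 4 lay inside the EXO range, and the difference of 0.46 did not pass (exact permutation p = 0.0571, adjusted p = 0.0571). Without LPS replicate 4 that difference was 0.59 with an adjusted exact p = 0.0286. Leaving it out removed the only overlap, and that p is the smallest that 3 against 4 libraries can give.

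**Figure D4:**
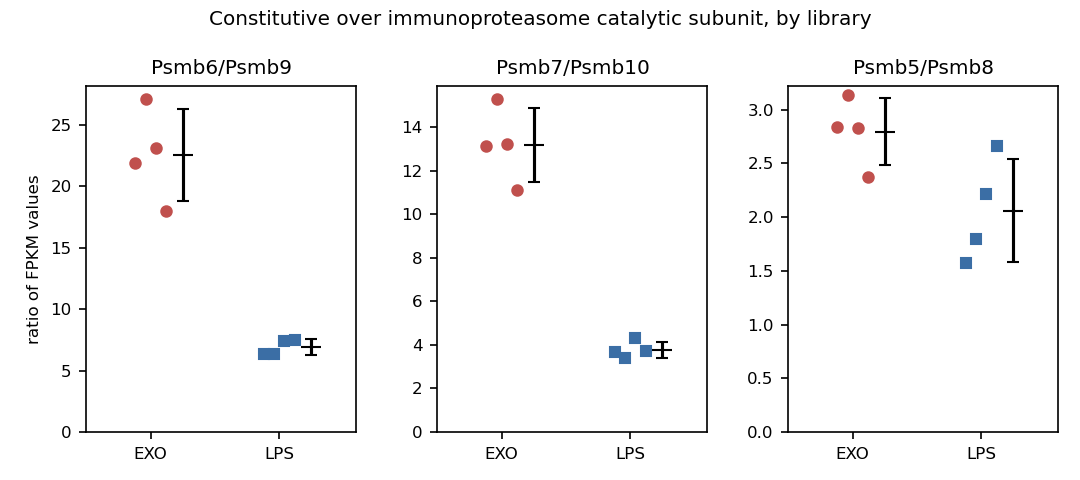
Ratio of FPKM of each constitutive catalytic subunit to its immunoproteasome counterpart in each library, EXO left of LPS, with group mean and SD (bars, n = 4 each) beside the points and axes starting at 0. EXO and LPS points do not overlap for Psmb6/Psmb9 and Psmb7/Psmb10, and do for Psmb5/Psmb8.

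Genes that act with the proteasome were counted in 7 lists of partners, and 19 of the 53 genes of those lists that were tested were higher in EXO, 10 were lower and 24 were not called. These counts lie near the background of all tested genes, 33.7% higher and 24.7% lower, and after rescaling they were 18 higher and 15 lower. The highest median of the 7 lists was that of the chaperones that build the core particle. Psmg1, Psmg2, Psmg3 and Psmg4, which guide assembly of the alpha ring, were all higher, and Pomp, the maturation factor of the beta ring, was not called, so that 4 of 5 genes were higher with a list median of 1.09. Psmg1 stood at 74.2, 64.3, 72.3 and 75.8 FPKM in EXO replicates 1 to 4, against 26.5, 20.6, 32.9 and 38.4 in LPS replicates 1 to 4. The groups were well separated, with a mean ratio of 2.42 (log2 fold change 1.28, SE 0.16, limma adjusted p = 1.46e-05). Psmg2 averaged 56.7 ± 2.04 FPKM in EXO and 25.1 ± 4.16 in LPS, Psmg3 averaged 50.5 ± 7.37 in EXO and 23.4 ± 5.73 in LPS, and Psmg4 averaged 79.3 ± 8.09 in EXO and 43.4 ± 2.4 in LPS. Pomp averaged 329 ± 34.8 FPKM in EXO and 291 ± 34.6 in LPS (a log2 difference of 0.18, limma adjusted p = 0.219).

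The activators that cap the core in place of the regulatory particle moved in opposite directions. Psme1 and Psme2, the interferon-inducible pair that form a mixed ring, were lower in EXO, at 130 ± 9.5 and 112 ± 11.2 FPKM in EXO against 269 ± 43.7 and 238 ± 25.3 in LPS. Psme2 has a near-identical copy, Psme2b, so its own level is uncertain. Psme3, which forms a nuclear ring of its own, was higher, at 46.7 ± 5.54 FPKM in EXO and 27.5 ± 5.21 in LPS, without overlap (log2 fold change 0.75, SE 0.14, limma adjusted p = 0.000329). Psmf1, an inhibitor of the core, averaged 13.5 ± 1.58 in EXO and 10.8 ± 1.35 in LPS, and its call (limma adjusted p = 0.0497) was lost with a pseudocount of 0.1 (0.0501), with no filter (0.0749), after rescaling (0.0759) and when 1 library other than EXO replicate 2 or LPS replicate 4 was left out (0.0636 to 0.15). Of the 5 genes in this list 2 were higher, 2 lower and Psme4 was not called. Over all tested genes, 33.7% were higher and 24.7% were lower.

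Of 9 analysed factors that bind the proteasome, 5 were higher, 1 was lower and 3 were not called, against 33.7% higher and 24.7% lower of all tested genes, and the list median was 0.41. Uchl5, a deubiquitinating enzyme of the regulatory particle, averaged 120 ± 14 FPKM in EXO and 50.4 ± 12.7 in LPS, with 115, 135, 128 and 103 in EXO replicates 1 to 4 against 44, 38.9, 50.7 and 68 in LPS replicates 1 to 4. This was a larger mean ratio, 2.39, than that of any of the 34 genes. Usp14, another deubiquitinating enzyme, averaged 74 ± 6.4 in EXO and 54.1 ± 6.88 in LPS, and Akirin2, which carries proteasomes into the nucleus, averaged 16 ± 0.871 in EXO and 11.1 ± 1.22 in LPS. Zfand5, a ubiquitin-binding activator of the proteasome, was the 1 that was lower, at 8.75 ± 0.649 FPKM in EXO and 20.6 ± 3.47 in LPS.

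Shuttle receptors bring ubiquitinated proteins to the proteasome, and the p97 segregase (Vcp) pulls them out of complexes. Of 12 genes of this list 5 were higher, 1 was lower and 6 were not called, near the 33.7% higher of all tested genes, of which 24.7% were lower, and the list median was 0.19. Ubqln4 averaged 21.5 ± 1.22 FPKM in EXO and 13.6 ± 1.32 in LPS, and Ubqln1 averaged 40.7 ± 3.5 in EXO and 29 ± 3.42 in LPS. These are shuttle receptors. Faf1 and Faf2, cofactors of p97, went apart, with Faf1 at 21.5 ± 2.31 in EXO and 14.1 ± 1.87 in LPS, and Faf2 at 8.92 ± 1.19 in EXO and 11.6 ± 1.59 in LPS. The call of Faf2 (limma adjusted p = 0.0282) was lost when EXO replicate 1, EXO replicate 2, LPS replicate 3 or LPS replicate 4 was left out (0.0574 to 0.0902), without EXO replicate 2 and LPS replicate 4 together (0.102) and with no filter (0.0519).

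Factors that transcribe proteasome genes, or act on those that do, numbered 11, of which 1 was higher, 2 were lower and 8 were not called, against 58.4% of all tested genes called in either direction. Nfe2l1 encodes NRF1, which raises proteasome transcription when degradation falls short, and Nfe2l2 encodes the related NRF2. Nfe2l1 averaged 41.3 ± 12.8 FPKM in EXO and 49.3 ± 13.2 in LPS and was not called (log2 fold change -0.26, 95% confidence interval -0.73 to 0.20, limma adjusted p = 0.309), a gene chosen after its values were seen. Nfe2l2 stood at 35.1, 38.7, 37.2 and 37.4 FPKM in EXO replicates 1 to 4, against 81.1, 97.2, 71.4 and 55.5 in LPS replicates 1 to 4. It was lower without overlap (log2 fold change -0.99, SE 0.15, limma adjusted p = 5.51e-05). Ngly1, the glycosidase that activates NRF1, averaged 3.27 ± 0.809 in EXO and 5.58 ± 0.753 in LPS and was lower. Nfyb, a subunit of the CCAAT-binding NF-Y, was the 1 gene of this list that was higher, at 11.2 ± 1.42 in EXO and 7.86 ± 0.259 in LPS, and Mafk, a small partner of NRF1 and NRF2, averaged 2.58 ± 0.47 in EXO and 2.1 ± 0.669 in LPS without a call. Mafk was called higher without LPS replicate 4 (limma adjusted p = 0.0227).

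Ubiquitin genes and the first enzymes of the ubiquitin cascade were counted last. Ubb, a polyubiquitin gene, was lower in EXO, at 501 ± 37 FPKM in EXO against 706 ± 74 in LPS. Uba1, the main ubiquitin-activating enzyme, averaged 65.9 ± 7.17 in EXO and 49.9 ± 6.43 in LPS, and Ube2k, a conjugating enzyme, averaged 30.7 ± 2.38 in EXO and 23.4 ± 3.08 in LPS, and both were higher. Of 9 genes, 2 were higher, 2 were lower and 5 were not called, against 33.7% higher and 24.7% lower of all tested genes.

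**Figure D5:**
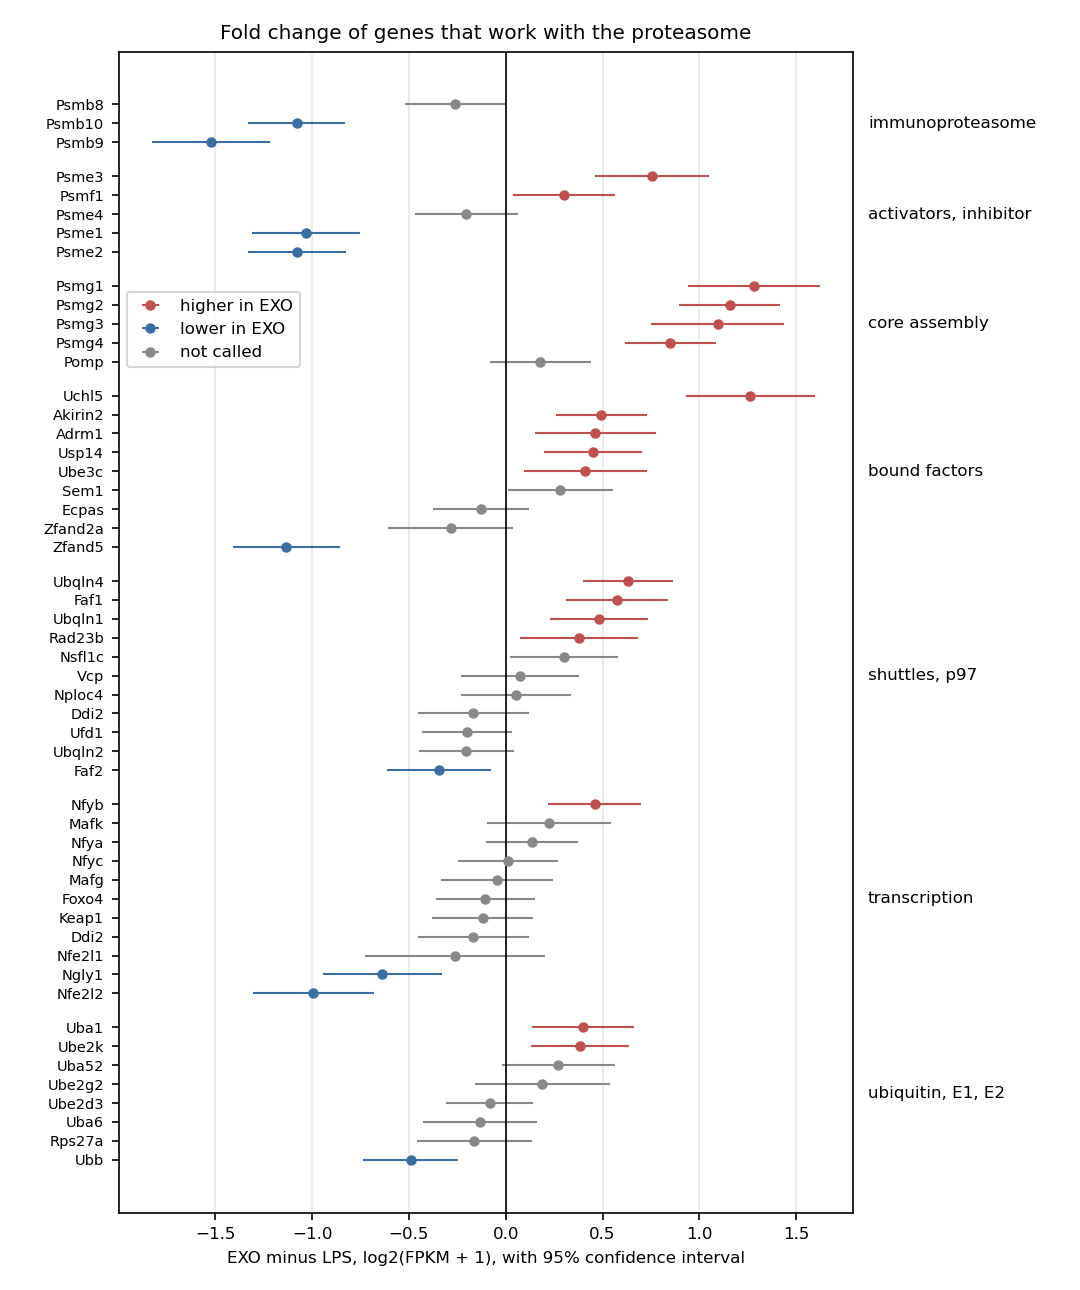
Log2 fold change (EXO minus LPS, log2(FPKM + 1) scale) with 95% confidence interval for genes of the 7 partner lists, Ddi2 standing in 2 of them. Psmg1, Psmg2, Psmg3 and Psmg4 lie farthest to the right with Uchl5, and Psmb9, Psmb10, Psme1, Psme2, Zfand5 and Nfe2l2 farthest to the left.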

How the data were processed

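RNA was measured by sequencing in 4 EXO and 4 LPS libraries. TRIzol was used to extract total RNA and a VAHTS Universal V6 kit to make libraries, per the labels' protocols. The submitters' processing notes name HISAT2 and the mouse build GRCm39 (mm39). No source used here gives the version of HISAT2, the counter, the annotation release or the strand setting. The values deposited by the authors are 1 number per gene and library and were taken to be FPKM, a unit that was inferred. In 100% of detected genes they were whole multiples of what 1 fragment is worth, within 0.01. That would hold for any count scaled by gene length and library total, so it does not fix the unit. The fragments recovered from these steps served for depth, for a check that found no library deposited more than once, and for 1 alternative.

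Values were transformed to log2(FPKM + 1). The 9812 genes with at least 1 FPKM in at least 4 libraries were fitted with limma 3.58.1 in R 4.3.3, with a mean for each group and no covariate. P-values were adjusted over all tested genes (Benjamini-Hochberg), with a threshold of 0.05. Ratios of subunit pairs were compared by exact two-sided permutation. The procedure was tested on simulated data. The genes and lists were chosen with earlier results of these data known. Values in every library are given for the catalytic subunits, Psmd14 and the genes with the highest and the lowest fold change of each role. They are also given for each of the 34 genes lower in EXO. The partner genes named are mainly those called, with others named for contrast. Alternatives were rescaling by median of ratios, a pseudocount of 0.1, no filter, a mean of at least 5 FPKM, voom on recovered fragments, a replicate block and leaving out libraries. The CCAAT motif was a later addition, made with the data in view. A comparison of protein sequences was not analysed here, and some partner genes that enter the list counts are not reported by name.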

Additional observations from a re-analysis of the deposited data

Results flagged for a closer look

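In 4 of the 68 groups of 4 libraries formed by the 34 genes (130 groups were checked in all), 1 library stood far from the other 3. The gap to its neighbour, divided by the range of the group, exceeded the 95% critical value of Dixon's test for 4 values, which chance does in about 1 in 20 groups. Psmb3 in EXO had 667 FPKM in replicate 1, against 576 to 585 in the others. Psmb7 in EXO had 467 FPKM in replicate 1, against 406 to 413 in the others. Psma1 in LPS had 238 FPKM in replicate 1, against 261 to 264 in the others. Psmb6 in LPS had 329 FPKM in replicate 3, against 277 to 286 in the others.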

How the results depend on the processing

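Of the 19 higher calls among the 34 genes, 14 held in all 15 alternatives and 5 were lost in some, and the number called lower was 1 in each. The number higher was 16 after rescaling and with no filter, 21 without EXO replicate 2 and LPS replicate 4 together, and 14 to 21 when 1 library was left out. Of all tested genes, 30.6% were higher after rescaling, 18.9% with no filter and 38.1% without EXO replicate 2 and LPS replicate 4 together. Leaving out 1 library gave 2867 to 3652 higher and 2005 to 2385 lower over all tested genes. Signs turned for Psmb1 after rescaling (-0.0166) and for Psmd5 after rescaling (-0.0446), without EXO replicate 2 (-0.0196) and without LPS replicate 1 (-0.06), with -0.06 to 0.0942 when 1 library was left out; the cause was not tested. Rescaling moved the median of all tested genes to 0.02. No pairing by replicate number was seen: deviations of same-numbered libraries correlated at 0.05, 0.17, -0.29 and -0.11, and 1 of 4 matched its own number best. With 4 libraries in each group, these correlations cannot settle whether same-numbered libraries shared a culture or a batch. With the replicate block the same 19 genes were higher and 3253 and 2339 of all tested genes were higher and lower. The Psmb6 over Psmb9 difference was 1.63 with the replicate block (adjusted exact p = 0.188) and 1.58 without EXO replicate 2 and LPS replicate 4 (0.1), and that of Psmb7 over Psmb10 was 1.78 (0.188) and 1.7 (0.1), in designs whose smallest exact p is 0.125 and 0.1. Leaving out 1 library gave 1.54 to 1.72 for Psmb6 over Psmb9 and 1.71 to 1.86 for Psmb7 over Psmb10. For Psmb5 over Psmb8 it gave 0.34 to 0.592, passing only without LPS replicate 4 (0.592), the LPS library inside the EXO range. The 34 genes had 1738 to 24348 fragments per library, so the spread between libraries rather than counting limited these comparisons.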
